A study of Mus musculus with 6 samples.

Results

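The genes described here carry glucose through glycolysis, the pentose phosphate pathway and the entry of pyruvate into mitochondria. The set was a list of 40 mouse genes, chosen with earlier results of these data known. It holds sugar and lactate transporters, the enzymes of each step, and the regulators Hif1a, Txnip and Arrdc4. A gene was taken as measured when the platform annotation paired at least 1 probe set with its symbol, and its brightest probe set over all arrays stood for it. By this rule 36 of the 40 genes were measured, of 21335 genes on the array. Gpi1, Eno1, G6pdx and Pfkfb1 were not analysed here. A probe set naming several genes was kept and is marked as such for the 2 genes concerned, Hk1 and Gapdh.

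Expression was profiled on 6 Affymetrix whole-transcript arrays of double-positive (DP) thymocytes, the T cell precursors that carry both CD4 and CD8, from C57BL/6 mice aged 3 weeks. The 3 wild-type (WT) arrays were set against 3 arrays of Hdac3 knockout (KO) mice, a strain labelled LCK:Hdac3 after Lck, a kinase gene of the T lineage. No treatment was given to either group. The sources used here give neither the knockout construct nor the deleted part of Hdac3. RNA was pooled from 2 mice of each genotype, per the series' design text, without a key of mice to arrays. P-values, SEs and intervals therefore measure spread among arrays, which may be technical in part or in full. Whether they hold any spread between mice cannot be told.

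Glycolysis splits glucose into pyruvate in the cytosol and yields ATP without oxygen. Pyruvate is then either reduced to lactate and exported with a proton by monocarboxylate transporters, or oxidised by pyruvate dehydrogenase, which pyruvate dehydrogenase kinases switch off. The pentose phosphate pathway branches off after glucose is phosphorylated, and makes NADPH and the ribose of nucleotides. In the thymus, the dividing cells before the DP stage are known for high glucose uptake, while most DP cells are small and resting.

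Hdac3 itself, the histone deacetylase of the NCoR/SMRT corepressor complexes, had log2 values of 9.40, 9.42 and 9.44 in WT and 8.28, 8.32 and 8.32 in KO (difference -1.12, SE 0.08, limma adjusted p = 3.5e-04), though its probes may lie outside the deleted part. All 16 measured DP markers of 18 listed lay above the median signal of 5.77, and their median level was 11.10 to 11.41 on WT and 11.12 to 11.14 on KO arrays. Of these 16, Bcl6 (0.61) and Themis (0.43) rose and Cd1d1 (-0.65) fell, where 9.06% of all probe sets above the median signal were called (limma adjusted p under 0.05). Over 7 lists of markers of other cells, neutrophil markers apart, 8 of 75 measured genes were called, where 5.79% of all probe sets were. Il2ra (2.28), Klf1 (0.44) and Cldn3 (0.47) were higher in KO, and Ikzf2 (-1.23), Il7r (-1.19), Cd44 (-0.66), Nkg7 (-0.45) and Epcam (-0.37) lower. Of 12 thymic epithelium markers 11 had positive differences, with a list median of 5.29 to 5.34 in WT and 5.36 to 5.49 in KO. Only 4 of the 12 lay above the median signal, and the list's median difference of 0.19 became 0.11 after quantile normalization. All 14 measured neutrophil and all 5 measured erythroid markers also had positive differences. Of these, 0 of the 14 and 2 of the 5 lay above the median signal. Among dim probe sets the median difference of all was also positive, up to 0.16 at a signal near 5.48. KO array 2 stood apart in neutrophil markers: the median level of the 14 measured was 5.79 there against 4.40 to 4.63 on the other 5 arrays, and none of the 14 differed between the genotypes at adjusted p under 0.05 in limma (2 at an unadjusted p under 0.05). The part of these markers in the results was not tested. Signal was also compressed on the KO arrays, with interquartile ranges of 3.06 to 3.25 against 3.29 to 3.49 in WT. Because the samples are bulk RNA, fewer cells of a type and less RNA per cell cannot be told apart.

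Of the 36 measured genes, 6 fell in KO, 1 rose and 29 did not pass the test (limma, Benjamini-Hochberg adjusted p under 0.05 over 23410 probe sets). The falls were those of Slc16a1, Pdk2, Tpi1, Arrdc4, Pfkl and Tkt, and the rise was that of Eno3. The 7 calls are 19.4% of the measured genes, where 5.79% of all probe sets tested were called. Because the genes were chosen with earlier results of these data known, such shares are descriptive, and an excess was not tested. By direction, 16.7% were called lower against 4.04% of all probe sets, and 2.78% higher against 1.75%. Most of these genes are brightly expressed: 31 of the 36 lay above the median signal, and 6 of those 31 were called, while 9.06% of all probe sets in that range were. Those 6 were 5 falls and 1 rise, and 6.95% of all probe sets in that range were called lower. At an unadjusted p under 0.05 the counts were 12 lower and 3 higher. Hk1 enters these counts, and those of overlap below, by a probe set shared with other genes. Its own probe set is described further on.

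The 3 arrays of each group did not overlap for 14 of the 36 genes, 11 lower in KO and 3 higher, where 30.0% of all probe sets showed no overlap. The counts are 30.6% and 8.33% of the measured genes, against 16.5% of all probe sets lower without overlap and 13.5% higher. The median difference of the 36 genes was -0.09 on the log2 scale and that of all probe sets 0.02. Among all probe sets above the median signal, the range that held 31 of the 36, the median was also -0.09. The share without overlap was not computed for that range. Relative to the WT mean, the median gene of the set lay at 0.04, 0.02 and -0.06 in WT and at -0.06, -0.14 and -0.13 in KO. WT array 3 and KO array 1 had the same value to 2 decimals.

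**Figure D1:**
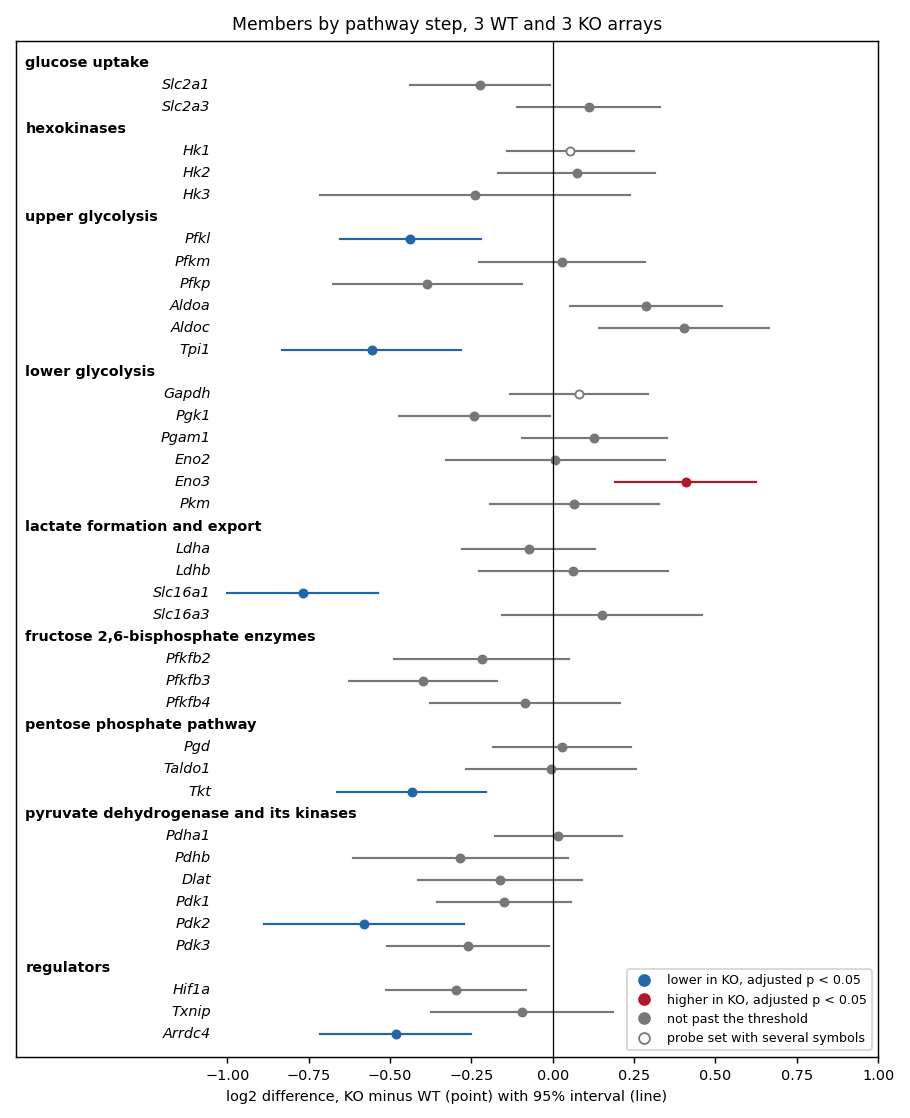
Log2 difference (KO minus WT, x axis) with its 95% interval for each of the 36 measured genes, grouped by pathway step; blue marks genes called lower, red called higher, grey not called, and open circles probe sets with several symbols. The 6 blue genes are spread over 5 of the 9 steps, from -0.77 for Slc16a1 to -0.43 for Tkt, and the 1 red gene is Eno3 at 0.41.

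The promoters of 4 genes are printed because they hold a shared motif and their genes differed in outcome: Slc16a1, Arrdc4 and Pdk2 fell in KO, while Ldha did not pass the test. Each line gives the 250 bases before a transcript start listed by RefSeq (GRCm38.p6), 5′ to 3′ on the gene's strand, with the E-box CACGTG in capitals. This palindrome is bound by MYC and its partner MAX and is part of the elements read by the glucose sensor MondoA.

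Slc16a1, chr3:104638414-104638663, plus strand: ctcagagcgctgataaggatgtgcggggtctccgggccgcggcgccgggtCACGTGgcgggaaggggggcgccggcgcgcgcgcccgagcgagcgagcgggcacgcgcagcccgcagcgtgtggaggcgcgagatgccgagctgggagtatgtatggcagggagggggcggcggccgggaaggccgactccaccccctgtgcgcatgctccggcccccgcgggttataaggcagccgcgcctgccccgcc

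Arrdc4, chr7:68749239-68749488, minus strand: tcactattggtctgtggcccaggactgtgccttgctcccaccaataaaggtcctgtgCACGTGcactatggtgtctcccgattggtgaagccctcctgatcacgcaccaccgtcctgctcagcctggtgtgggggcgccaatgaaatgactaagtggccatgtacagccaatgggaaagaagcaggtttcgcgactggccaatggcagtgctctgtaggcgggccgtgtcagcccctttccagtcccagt

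Pdk2, chr11:95041372-95041621, minus strand: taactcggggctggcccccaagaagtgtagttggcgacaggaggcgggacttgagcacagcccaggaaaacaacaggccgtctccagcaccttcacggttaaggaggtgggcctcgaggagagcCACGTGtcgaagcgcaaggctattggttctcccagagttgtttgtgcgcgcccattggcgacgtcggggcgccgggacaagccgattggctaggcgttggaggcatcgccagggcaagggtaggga

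Ldha, chr7:46845554-46845803, plus strand: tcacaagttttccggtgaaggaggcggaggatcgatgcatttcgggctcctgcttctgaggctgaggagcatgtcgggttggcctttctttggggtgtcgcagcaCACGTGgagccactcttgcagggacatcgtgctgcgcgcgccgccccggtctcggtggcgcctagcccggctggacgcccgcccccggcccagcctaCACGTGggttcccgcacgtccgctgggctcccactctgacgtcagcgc

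The E-box began 200 bases before the start in Slc16a1, 193 in Arrdc4 and 126 in Pdk2, and the Ldha window held 2, at 145 and 48 bases. Promoters were found for 39 of the 40 genes, with 59 listed starts. CACGTG, searched on both strands, was present before at least 1 start of 8 of these 39 genes (20.5%), against 6.86% of all 27025 genes. All 27025 genes had 32851 listed starts, fewer per gene than the 59 of these 39. More starts per gene can raise such a share. It was present in 3 of the 6 genes that fell, in 0 of the 1 that rose and in 5 of the 28 measured genes that did not pass. The other 5 genes with it were Hif1a, Ldha, Pfkfb2, Pfkfb3 and Pfkm.

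ACGTG, the core of the hypoxia response element, which every CACGTG also holds on both strands, was present in 18 of the 39 genes (46.2%) against 18.5% of all genes. It was found in 3 of the 6 that fell and 15 of the 28 that did not pass. The nuclear receptor motif AGGTCA was present in 8 of the 39 (20.5%) against 15.8% of all genes, in 0 of the 6 that fell and in Eno3. These counts describe letters in a window and are not evidence of binding.

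Transport of lactate and pyruvate held the largest change. Slc16a1, which encodes the monocarboxylate transporter MCT1 and is measured by probe set 10495035, had values of 10.19, 10.13 and 9.997 in WT and 9.46, 9.20 and 9.37 in KO. The gap between the groups was wider than the range within either. The mean fell from 10.11 ± 0.10 (SD, n = 3) to 9.34 ± 0.13 (SD, n = 3), a difference of -0.77 (95% interval -1.001 to -0.54, SE 0.10, limma adjusted p = 0.0041) or 1.70-fold. It was the one gene of the 36 called in all 17 alternative analyses, where the difference ranged from -0.87 to -0.67.

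Slc16a3, the related exporter MCT4 of highly glycolytic cells, had values of 5.82, 5.89 and 5.78 in WT and 6.14, 6.16 and 5.65 in KO. KO array 3 lay below every WT array and the other two KO arrays above them, so the groups overlapped (difference 0.15, 95% interval -0.16 to 0.46, limma adjusted p = 0.52). Neither lactate dehydrogenase subunit passed the test. Ldha, the subunit that favours lactate formation, differed by -0.07 (95% interval -0.28 to 0.13) and Ldhb, which favours pyruvate, by 0.06 (95% interval -0.23 to 0.35). The value for Ldhb is that of the brighter of its 2 probe sets. The other, at 9.10 in WT and 9.33 in KO, gave 0.23 (95% interval -0.04 to 0.50). It was also not called (limma adjusted p = 0.26). Which of the 2 reads the Ldhb transcript was not examined, so neither value can be preferred.

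Glucose uptake and its first phosphorylation showed no called gene (limma, with 1 of 5 genes, Slc2a1, at an unadjusted p under 0.05). Slc2a1, the transporter GLUT1, had values of 7.85, 7.78 and 7.75 in WT and 7.69, 7.46 and 7.56 in KO. Every KO array lay below every WT array, and the difference of -0.22 (95% interval -0.44 to -0.01) did not pass (limma adjusted p = 0.18). Slc2a3, the high-affinity transporter GLUT3, differed by 0.11 (95% interval -0.11 to 0.33).

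Hk1, the hexokinase of most tissues, needs a caution on its probe sets. The annotation pairs 18 probe sets with Hk1, of which 16 carry several symbols, among them the ribosomal protein gene Rpl17. The brightest of the 18 is 1 of those 16, at 12.57 ± 0.04 in WT and 12.62 ± 0.05 in KO, and its level cannot be assigned to Hk1. Probe set 10369541, the one whose accessions include the RefSeq transcripts of Hk1, had values of 8.51, 8.38 and 8.45 in WT and 8.13, 8.06 and 8.11 in KO. Here the groups did not overlap, and the difference of -0.35 (SE 0.09, limma adjusted p = 0.0501) missed the threshold narrowly. The other probe set that carries the Hk1 symbol alone, 10414661, lay at 12.38 in WT and 12.35 in KO. Its groups overlapped, with a difference of -0.03 (limma adjusted p = 0.88).

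Hk2, the inducible hexokinase, differed by 0.07 (95% interval -0.17 to 0.31). Hk3, a hexokinase of myeloid cells, had values of 5.22, 5.19 and 5.41 in WT and 4.45, 5.29 and 5.36 in KO, so 1 low array, KO array 1, set its difference of -0.24 (95% interval -0.71 to 0.24). Without KO array 1 the Hk3 difference was 0.06. On KO array 2, where neutrophil markers were high, Hk3 lay within the WT range.

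In the upper steps of glycolysis, 2 of 6 genes fell and 4 did not pass. Tpi1, triosephosphate isomerase, which interconverts the triose phosphates, had values of 8.54, 8.79 and 8.38 in WT and 8.06, 7.87 and 8.11 in KO. All KO arrays lay below the lowest WT array (difference -0.56, SE 0.12, limma adjusted p = 0.034). Pfkl, the liver-type subunit of phosphofructokinase, the committed step of glycolysis, had values of 6.91, 6.96 and 7.04 in WT and 6.66, 6.50 and 6.45 in KO (difference -0.44, SE 0.10, limma adjusted p = 0.034). Its groups were separated by more than the range within WT.

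The platelet-type subunit Pfkp had values of 9.28, 9.09 and 8.998 in WT and 8.91, 8.48 and 8.83 in KO. It was lower on every KO array but did not pass (difference -0.38, 95% interval -0.68 to -0.09, limma adjusted p = 0.11). The muscle-type subunit Pfkm differed by 0.03 (95% interval -0.23 to 0.28), with WT array 1 at 7.94 above all other arrays, which lay at 7.57 to 7.74. Whether the subunits differed from each other was not tested.

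The aldolases lay on the other side. Aldoa, the main aldolase of most tissues, had values of 9.13, 9.38 and 9.38 in WT and 9.48, 9.63 and 9.64 in KO. Aldoc, the brain-type enzyme, had dimmer values of 5.18, 5.30 and 4.95 in WT and 5.67, 5.42 and 5.56 in KO. For both, every KO value exceeded every WT value. Aldoa did not pass, with a difference of 0.29 (95% interval 0.05 to 0.52) and a limma adjusted p of 0.13. Aldoc, at 0.40 (95% interval 0.14 to 0.66), had a limma adjusted p of 0.074.

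In the lower steps of glycolysis, Eno3 rose and 5 of 6 genes did not pass. Eno3, the muscle-type enolase, had values of 6.85, 6.92 and 6.69 in WT and 7.28, 7.24 and 7.17 in KO. The lowest KO array lay above the highest WT array, and the difference was 0.41 (95% interval 0.19 to 0.62, SE 0.10, limma adjusted p = 0.042). Eno2, the neuronal enolase, differed by 0.01 (95% interval -0.33 to 0.35), with WT array 3 the brightest at 5.65 against 5.10 to 5.46 elsewhere.

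Pgk1, the first ATP-forming kinase of the pathway, had values of 10.01, 10.23 and 10.20 in WT and 9.92, 10.01 and 9.79 in KO. WT array 1 and KO array 2 met at 10.01, and the difference of -0.24 did not pass (95% interval -0.47 to -0.01, limma adjusted p = 0.19). Its other 2 probe sets, identical to each other, gave -0.17. Pgam1, phosphoglycerate mutase, differed by 0.13 and its other 2 probe sets by 0.10, with none called.

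Gapdh, often used as a reference gene, was represented by 25 probe sets, all shared with several Gapdh-like loci. They differed by 0.02 to 0.11 and none was called (lowest limma adjusted p = 0.48). The brightest stood at 12.84 ± 0.10 in WT and 12.92 ± 0.05 in KO. Pkm, the pyruvate kinase of the last step, differed by 0.07 at 1 probe set and by -0.05 at the other, which is annotated with its RefSeq transcripts.

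**Figure D2:**
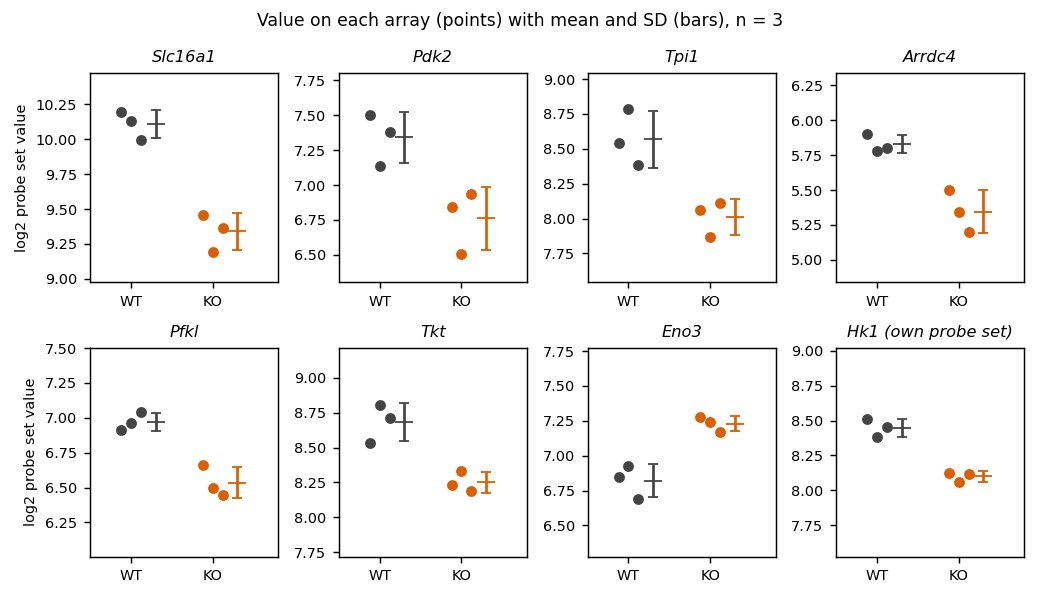
Log2 value on each array (points) with the mean and SD of 3 arrays (bars) for the 7 called genes and for Hk1 measured by the probe set annotated with its RefSeq transcripts; every panel spans the same height. In each panel the WT and KO points are separate, widest for Slc16a1 and, in the opposite direction, for Eno3 alone.

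The PFKFB enzymes make and remove fructose 2,6-bisphosphate, the strongest activator of phosphofructokinase. All 3 measured had negative differences and none passed (limma, with 1 of 3 at an unadjusted p under 0.05). Pfkfb3, the isoform with the highest kinase activity, had values of 7.95, 7.80 and 7.98 in WT and 7.64, 7.41 and 7.48 in KO. Its groups did not overlap, and its difference of -0.40 just missed the threshold (95% interval -0.63 to -0.17, limma adjusted p = 0.0505). Pfkfb2 differed by -0.22 and Pfkfb4, a target of hypoxia signalling, by -0.09.

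In the pentose phosphate pathway, 1 of 3 genes fell. Tkt, transketolase, which joins the pathway's sugars back to glycolysis, had values of 8.53, 8.81 and 8.71 in WT and 8.23, 8.33 and 8.19 in KO. The highest KO array lay below the lowest WT array (difference -0.43, SE 0.10, limma adjusted p = 0.041). The partner enzyme transaldolase, Taldo1, differed by -0.00 (95% interval -0.27 to 0.26) and Pgd, of the NADPH-forming branch, by 0.03 (95% interval -0.18 to 0.24).

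At the pyruvate dehydrogenase step, 1 of 6 genes fell. Pdk2, the widely expressed kinase that switches the complex off, had values of 7.50, 7.14 and 7.38 in WT and 6.84, 6.51 and 6.94 in KO. The groups were separate, with WT array 2 the lowest of WT and KO array 3 the highest of KO (difference -0.58, SE 0.14, limma adjusted p = 0.042). Pdk3 stood at 8.22, 8.45 and 8.20 in WT and 8.19, 7.94 and 7.96 in KO, which barely separated, with a difference of -0.26 (limma adjusted p = 0.18). Pdk1, the kinase induced by hypoxia, differed by -0.15 (95% interval -0.36 to 0.06).

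Subunits of the complex itself did not pass. Pdha1, the catalytic alpha subunit, lay at 9.79 to 9.86 in WT and 9.79 to 9.91 in KO (difference 0.02, 95% interval -0.18 to 0.21). Pdhb, its beta subunit, differed by -0.28 (95% interval -0.61 to 0.05) with overlapping groups, and Dlat, the acetyltransferase core, by -0.16 (95% interval -0.41 to 0.09).

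Among the regulators, Arrdc4 fell. Arrdc4 and Txnip are related alpha-arrestins that restrain glucose uptake, and both are known targets of the glucose sensor MondoA. Arrdc4 had values of 5.90, 5.78 and 5.80 in WT and 5.50, 5.34 and 5.20 in KO. Each KO array lay below each WT array (difference -0.48, SE 0.10, limma adjusted p = 0.030), at a signal near the median of the array, for which no detection call was used here. Txnip was far brighter, at 11.63, 11.31 and 11.28 in WT and 11.50, 11.21 and 11.23 in KO. In both genotypes array 1 was the highest, the groups overlapped, and the difference was -0.10 (95% interval -0.38 to 0.18). Hif1a, the hypoxia-inducible factor, had values of 9.72, 9.78 and 9.58 in WT and 9.43, 9.45 and 9.31 in KO, separate but not called (difference -0.30, 95% interval -0.51 to -0.08, limma adjusted p = 0.098).

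The differences were also set against the median at each gene's brightness, since that median varied with signal. In 10 equal bins of the tested probe sets by signal, the median difference was 0.02 in the dimmest bin, 0.16 at a signal near 5.48, -0.17 near 7.78 and -0.04 in the brightest bin. Relative to the median of its bin, Slc16a1 differed by -0.73, Arrdc4 by -0.64, Pdk2 by -0.44, Tpi1 by -0.42, Tkt by -0.30 and Pfkl by -0.30. Eno3 lay 0.55 above its bin. After quantile normalization of the 6 arrays, 3 of the 7 remained called: Slc16a1 (-0.73, limma adjusted p = 0.0038), Arrdc4 (-0.57, limma adjusted p = 0.020) and Eno3 (0.51, limma adjusted p = 0.014). Tpi1 (-0.43), Pdk2 (-0.48), Pfkl (-0.37) and Tkt (-0.31) kept their sign with limma adjusted p of 0.064, 0.088, 0.067 and 0.16. In that setting 2 of 36 genes were called lower, where 2.60% of all probe sets were, and 1 higher, where 1.40% were.

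**Figure D3:**
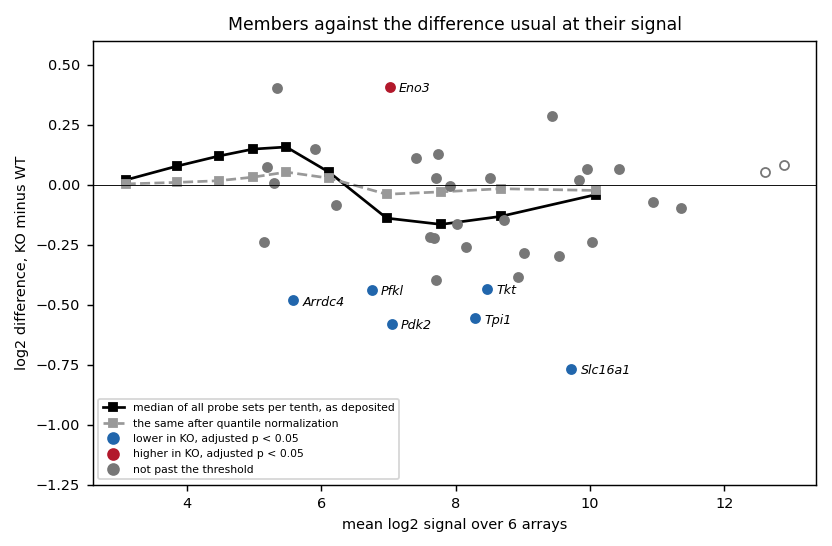
Log2 difference (KO minus WT, y axis) against mean log2 signal over the 6 arrays (x axis) for the 36 genes (circles, coloured by call as in the legend, open where the probe set has several symbols), with the median of all tested probe sets in each of 10 signal bins as deposited (black) and after quantile normalization (grey). The black line dips to -0.17 in the range where many of the genes lie, and Slc16a1 lies 0.73 below it and Eno3 0.55 above.

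Leaving out single arrays ended most calls in most of the 6 such analyses. Slc16a1 was called in each of the 6 analyses that left out 1 array. Arrdc4 was called in 2 of them, without WT array 3 or KO array 1, Tpi1 in that without WT array 3, Pfkl in that without KO array 1 and Tkt in that without WT array 1. Pdk2 and Eno3 were called in none of the 6, with differences of -0.68 to -0.45 and 0.34 to 0.46. The number of genes called dropped to 3 for either of WT array 3 and KO array 1, to 2 for WT array 1, and to 1 for each of WT array 2, KO array 2 and KO array 3. Over all probe sets, the 1355 calls rose to 1946 without WT array 3. They dropped to 826 without KO array 1 and to 474 to 517 without any other array. All 7 genes kept their direction in the 17 alternatives.

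**Figure D4:**
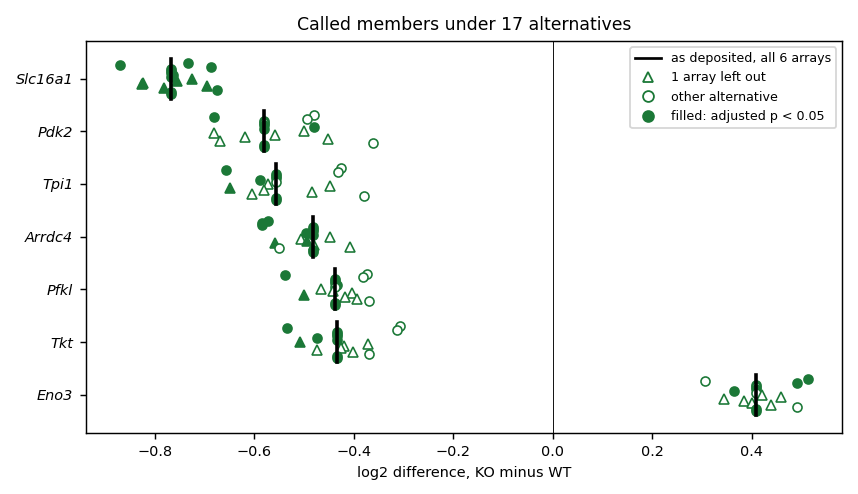
Log2 difference (KO minus WT, x axis) of the 7 called genes as deposited (black line) and under 17 alternatives (triangles with 1 array left out, circles otherwise, filled where adjusted p was under 0.05). No point crosses 0, and Slc16a1 is the gene whose symbols are all filled.

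Neighbouring pathways were read in the same fit, from 7 lists with 135 measured genes. These lists too were chosen with earlier results of these data known, so their shares are descriptive. Of these, 13 fell and 0 rose, and by list 0% to 23.8% of genes were called, against 5.79% of all probe sets. Most genes of each list lay above the median signal, where 9.06% of all probe sets were called and 6.95% called lower. After quantile normalization 7 were called lower, where 2.60% of all probe sets were, and 1 higher, where 1.40% were. After median centring 23 were called, where 2060 of all 23410 probe sets were. The 13 became 14 when WT array 3 was left out, 7 for WT array 2, KO array 1 or KO array 3, and 5 for WT array 1 or KO array 2. Gfpt1, Gyg, Suclg2, Myc and Arrdc1, described next, were called in each of those 6.

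Of 24 other genes of glycolysis and sugar entry, 3 fell, with a list median of -0.01. Gfpt1, the entry enzyme of the hexosamine pathway, had values of 8.16, 8.11 and 7.89 in WT and 7.45, 7.34 and 7.28 in KO (difference -0.69, limma adjusted p = 0.0068). Bpgm, which makes 2,3-bisphosphoglycerate, and Pgm2, a phosphopentomutase, fell by 0.49 each. Bpgm was called in 1 analysis with an array left out, that without WT array 3, and Pgm2 in 2, those without WT array 3 or KO array 3. Of 11 other pentose phosphate genes, Rpia, the ribose 5-phosphate isomerase, fell by 0.50 (limma adjusted p = 0.016), a call lost without WT array 1 or KO array 2, and the list median was 0.02. None of 17 other genes of pyruvate entry passed (limma, 4 at an unadjusted p under 0.05), among them both pyruvate dehydrogenase phosphatases, Pdp1 and Pdp2, with differences of -0.18 and 0.01. Slc16a6, of the monocarboxylate transporter family, had values of 6.98, 6.88 and 6.95 in WT and 7.17, 7.27 and 7.21 in KO. The groups did not overlap, and its difference of 0.28 (limma adjusted p = 0.094) became 0.39 after quantile normalization, where it was called higher (limma adjusted p = 0.045).

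Glycogen metabolism held 1 larger change. Gyg, glycogenin, the protein that primes glycogen, had values of 6.93, 6.84 and 6.76 in WT and 6.05, 5.79 and 6.06 in KO, with no overlap (difference -0.87, SE 0.11, limma adjusted p = 0.0027). It was the one of 21 gluconeogenesis and glycogen genes to pass, and their median difference was 0.01.

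In the tricarboxylic acid cycle, 19 of 20 genes had negative differences and 3 fell. Suclg2, the GTP-specific beta subunit of succinyl-CoA ligase, had values of 7.40, 7.37 and 6.98 in WT and 6.44, 6.07 and 6.23 in KO (difference -1.01, SE 0.14, limma adjusted p = 0.0045). Aco1 and Idh3g fell by 0.39 and 0.36, of which Aco1 was called with an array left out only without WT array 3, and Idh3g in none of the 6. After quantile normalization 1 of the 3, Suclg2, was called, and the list's median of -0.25 became -0.16. All 20 genes lay above the median signal, where the median of all probe sets was -0.09.

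Hypoxia signalling outside glycolysis showed no call among 21 genes (limma, 5 at an unadjusted p under 0.05), with differences of -0.36 to 0.28 and a median of -0.11. Of 21 other regulators of glycolytic genes, 5 fell and none rose, with a median of -0.17 that became -0.09 after quantile normalization. Myc, the transcription factor that raises glycolytic genes in dividing T cells, had values of 7.95, 7.91 and 7.76 in WT and 6.84, 6.18 and 6.81 in KO, the largest difference in these 7 lists (difference -1.26, SE 0.17, limma adjusted p = 0.0035). Arrdc1, a further alpha-arrestin, fell by 0.66 (limma adjusted p = 0.0059) and Rptor, the mTORC1 subunit raptor, by 0.57 (limma adjusted p = 0.019), the latter called with an array left out in 2 analyses, without WT array 3 or KO array 1. Akt1 fell by 0.41 and Mlxip, which encodes MondoA, by 0.37, and neither was called when any 1 array was left out. Mlx, the partner of MondoA, differed by -0.01 and Foxo1 by 0.26, and neither passed.

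**Figure D5:**
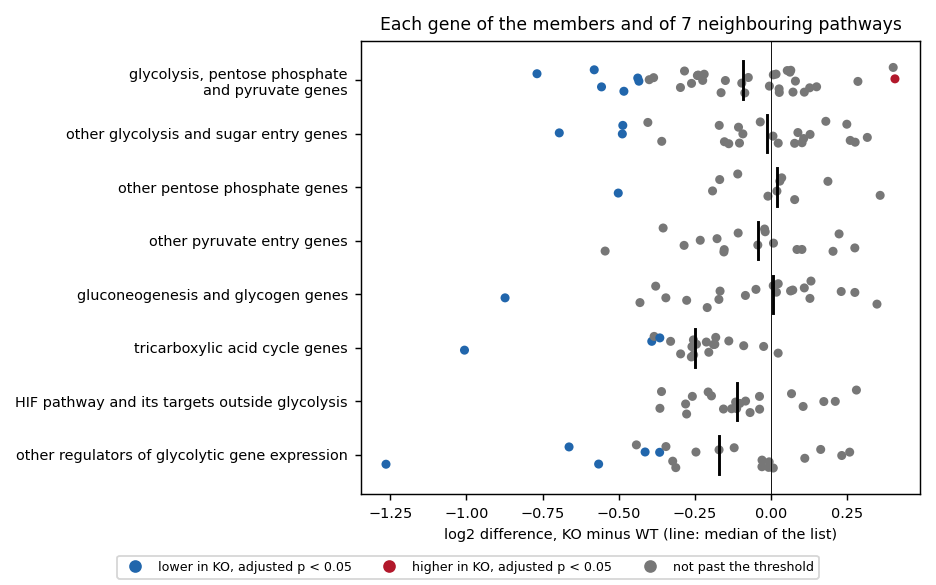
Log2 difference (KO minus WT, x axis) of each measured gene of the set and of 7 neighbouring lists (y axis, spread within a row only to separate points), with the list median as a black line and calls coloured as in the legend. The 13 called genes of the 7 lists are all lower in KO, and Myc at -1.26 lies farthest out.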

How the data were processed

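The authors deposited log2 values per probe set for each of 6 arrays. That they are log2 was read from their range, 1.94 to 13.98. Background correction, normalization and probe set summary: not given in the sources used here. Of 28853 probe sets, 21789 had 1 gene symbol in the platform annotation, 1621 several and 5443 none. The 23410 with a symbol were fitted with limma 3.58.1 (lmFit and eBayes, R 4.3.3) as 2 group means, two-sided, with Benjamini-Hochberg adjustment and a threshold of 0.05. The brightest probe set stood for a gene, and neighbouring lists used probe sets with 1 symbol. No single-gene exact test was run, since 3 against 3 arrays cannot give a p under 0.1. The precision is limited by the number of arrays (median SE 0.11 on the log2 scale). The fit was tested on simulated data.

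The members and lists were chosen with earlier results of these data known. All 36 measured members were to be accounted for, with values per array for those called, for Txnip, Arrdc4, Hif1a and Hdac3, and for the largest differences of each step, and up to 4 called genes were to be named from each neighbouring list. The fifth called regulator, the called marker genes, single uncalled genes of the lists and the further per-array values were named after their values were seen. Promoters came from a RefSeq table of assembly GRCm38.p6. The 17 alternatives are other normalizations (quantile, median centring, cyclic loess), a filter on dim probe sets, all probe sets tested, array weights, an intensity trend plus robust prior, a block on replicate number, single arrays left out, and other probe sets for a gene.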

Additional observations from a re-analysis of the deposited data

How the results depend on the processing

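The number of genes of the set called, 7 of 36, was 3 after quantile normalization, 3 after cyclic loess normalization, 4 with the replicate block and 1 after quantile normalization without KO array 2. It was 8 after median centring, 8 with dim probe sets left out, 9 with an intensity trend and 9 with array weights. The number called lower, 6, was 2 after quantile or cyclic loess normalization and 1 after quantile normalization without KO array 2. The number called higher, 1, was 0 after median centring, with all probe sets tested, with the replicate block and after quantile normalization without KO array 2 (limma, 2, 3, 3 and 3 higher at an unadjusted p under 0.05). With 1 array left out, 1 to 3 genes were called, 1 to 3 lower and 0 higher (limma, 2 to 3 higher at an unadjusted p under 0.05). Correlations of deviations were 0.25, -0.07 and -0.03 between same-numbered arrays and -0.34 to 0.32 between the others. Not every array correlated best with its own number. With 3 arrays per group these values cannot show whether same-numbered arrays were handled together.

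Over all probe sets, 1355 calls (409 higher, 946 lower, 30.2% higher) became 2060 after median centring (197 higher, 1863 lower, 9.56% higher), 2285 with array weights and 437 after quantile normalization without KO array 2. The count was 936 after quantile and 1021 after cyclic loess normalization, 1162 with the replicate block and 1899 with an intensity trend. With dim probe sets left out, and so fewer tested, it was 1895. With 1 array left out the count was 474 (KO array 2) to 1946 (WT array 3). Median centring shifted the differences of the set by -0.10, and under it, quantile or cyclic loess normalization 10 of the 29 uncalled genes changed sign. Hk1 by its own probe set was called in 4 of 15 alternatives, Pfkfb3 in 6 of 17 and Hif1a in 3 of 17. No called gene of the set or of the 7 lists changed direction in any alternative.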
